A study of Mus musculus with 18 samples.

Results

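This comparison sets mouse livers labelled 1OFF beside livers labelled 12 across every counted gene. Libraries were assigned by label alone: 3 libraries of 1OFF and 3 of 12, out of 18 libraries in 6 groups, with 3 mice per group. The series profiled polyadenylated RNA from injured mouse livers in which a MycER protein could be switched on. Injury was by carbon tetrachloride, given intraperitoneally in oil. Group 12 was taken 12 days after injury with no MycER activation. Group 1OFF is labelled as 1 day after injury and without MycER activation; the labels do not settle whether that day is counted from injury or from the end of an earlier activation. A further group, 12ON, was taken 12 days after injury with MycER activated by tamoxifen, and the series design uses it as the reference for the OFF time points. The labels leave out any earlier activity of MycER in the 1OFF livers, which promoter or cell type drives the construct, the sex of the mice, and whether the group 12 mice received tamoxifen. Time after injury and any earlier MycER activity therefore cannot be told apart between 1OFF and 12.

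MYC is a transcription factor that binds DNA with its partner MAX, at sites that include the E-box, and is known for raising genes of ribosome production, nucleotide synthesis and the cell cycle. MycER fuses MYC to the hormone-binding part of the estrogen receptor, so that the protein acts in the nucleus while tamoxifen or its metabolites are bound. Carbon tetrachloride is made toxic by cytochrome P450 enzymes of the hepatocytes around the central vein, and the surviving hepatocytes, the main cell type of the liver, divide to replace those that die. The mature liver also secretes most plasma proteins, makes cholesterol and bile acids and detoxifies drugs.

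All 6 libraries carried the liver's own product in quantity: albumin, Alb, had 95890, 88450 and 91320 CPM (read counts scaled by library size and composition) in 12 and 34010, 29530 and 33060 in 1OFF. Total gene counts ran from 23057899 to 50580776 in 12 and from 25927469 to 50108171 in 1OFF. Of 17789 genes with enough counts to test, 3036 were higher in 1OFF (17.1%) and 2903 were lower (16.3%), so that 33.4% were called in either direction at an adjusted p under 0.05 in edgeR's quasi-likelihood test. The median difference over all tested genes was 0.00 on the log2 scale, and every list of genes below is read against that median and those percentages. Lists with call shares near or below those percentages are not set apart from all genes by their counts. Among them are the periportal, iron, stellate cell, monocyte and macrophage, and chemokine lists. Among called genes, 1185 were at least 2-fold higher and 863 at least 2-fold lower, while 436 and 261 differed by at least 4-fold. Calls held with all 6 libraries and when each was left out in turn for 1950 higher and 1612 lower genes. Of 44 list members given below only to account for a count, 42 lost their call without at least 1 library, and Dlk1 and Bex1 kept it. Scaling by library size alone, without the correction for composition, moved the median of all genes to 0.34 and gave 6774 higher and 1018 lower genes. Calls were then 86.9% higher, against 51.1% with the correction.

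A pair of library properties moved with the groups or stood apart within them. Reads of mitochondrially encoded genes were 4.80% to 5.25% of raw counts in 12 and 6.16% to 7.33% in 1OFF, without overlap. With the composition correction, the summed level of 15 such genes overlapped, at 55250 to 61270 CPM in 12 and 58500 to 64450 in 1OFF. A fit with the raw share as a term gave 1178 higher and 688 lower genes. Because that share separates the 2 groups, calls lost in this fit cannot be assigned to the share rather than to the group. Its calls are not given below for every list, and a list without them did not necessarily keep its own. Xist, the RNA of the inactive X chromosome, was at 287 CPM in 12 replicate 3 and under 1 CPM in the other 5 libraries. Among the low-Xist libraries alone, 2422 genes were higher and 2307 lower. That fit also drops the high-Xist libraries of other groups, which share the estimate of spread. Leaving out 12 replicate 3 alone gave 2567 and 2512. What part either property has in the differences below was not tested. In whole tissue, fewer cells of a type and less RNA per cell cannot be told apart.

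**Figure D1:**
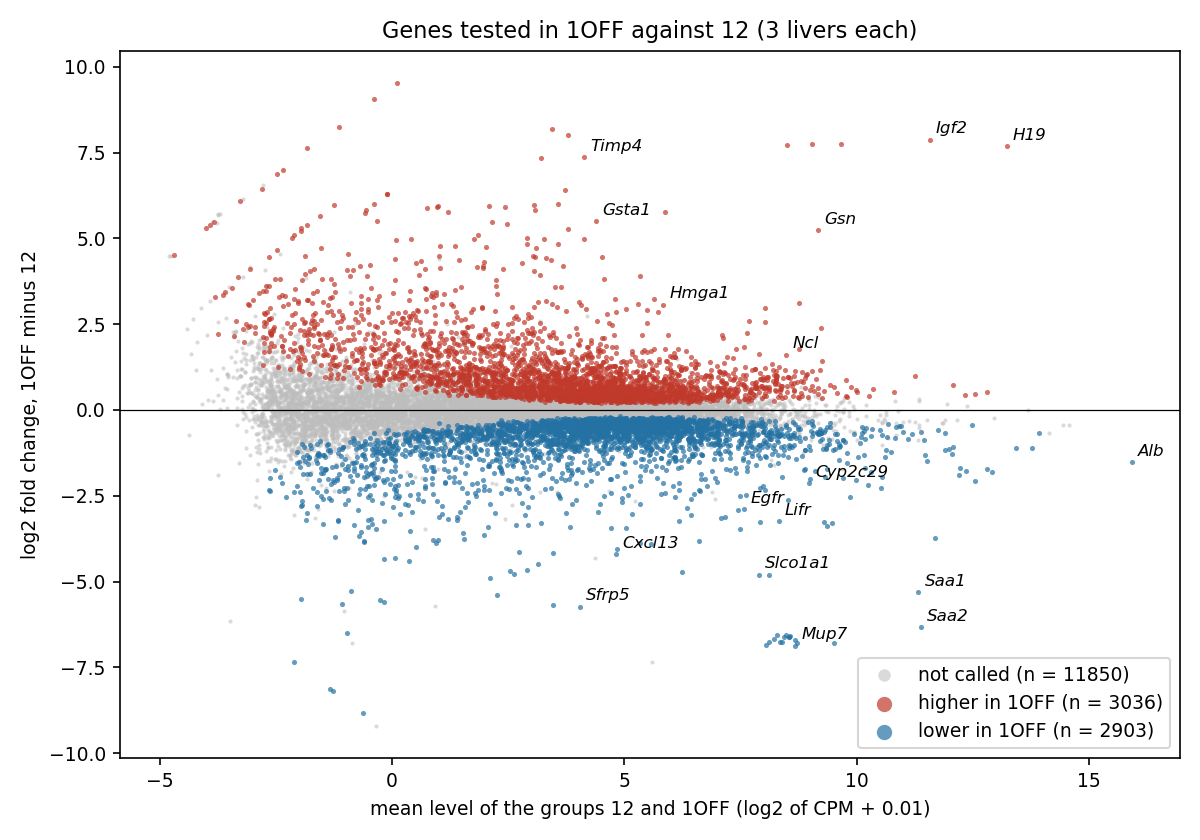
Mean level of each tested gene in groups 12 and 1OFF (x axis, log2 CPM) against the difference between 1OFF and 12 (y axis, log2, positive where 1OFF is higher). Each point is 1 gene, and colours mark the 3036 genes called higher and the 2903 called lower; H19, Igf2 and Gsta1 lie far above 0 and Saa1 and Mup7 far below it.

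The promoters of 6 genes are shown first, a pair from each of 3 lists described below. Motifs played no part in the choice of the lists, but they did in the choice of these genes. From each list the pair of smallest p was taken among members whose promoter held the motif searched for. A match in each was thus fixed beforehand. Eif4a1, an RNA helicase of translation initiation, and Phb, a mitochondrial chaperone protein, are MYC targets with an E-box, CACGTG. Ttk and Cdk1, kinases of mitosis, carry CCAAT boxes. Apoa2 and Apob, the protein parts of secreted lipoproteins, carry a TATA motif, TATAAA. Each sequence is from RefSeq on GRCm38.p6, runs 5′ to 3′ on the gene's strand and ends at the last base before the gene's start that lies outside annotated exons. Capitals mark the motif on either strand, so that ATTGG is a CCAAT box read from the opposite strand. Hspd1, another MYC target with an E-box, was passed over because its match lies in an exon of the neighbouring Hspe1.
Eif4a1, chr11:69672424-69672673, minus strand: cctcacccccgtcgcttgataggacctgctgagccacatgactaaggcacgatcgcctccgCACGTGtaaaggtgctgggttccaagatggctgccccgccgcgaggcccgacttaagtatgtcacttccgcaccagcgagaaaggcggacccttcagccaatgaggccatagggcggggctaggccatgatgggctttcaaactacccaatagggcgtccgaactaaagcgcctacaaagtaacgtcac
Phb, chr11:95666707-95666956, plus strand: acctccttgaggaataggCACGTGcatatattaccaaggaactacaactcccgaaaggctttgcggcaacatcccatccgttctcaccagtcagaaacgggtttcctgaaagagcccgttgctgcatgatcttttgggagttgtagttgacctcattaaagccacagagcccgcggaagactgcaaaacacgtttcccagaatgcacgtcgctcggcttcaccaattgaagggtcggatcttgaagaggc
Ttk, chr9:83834439-83834688, plus strand: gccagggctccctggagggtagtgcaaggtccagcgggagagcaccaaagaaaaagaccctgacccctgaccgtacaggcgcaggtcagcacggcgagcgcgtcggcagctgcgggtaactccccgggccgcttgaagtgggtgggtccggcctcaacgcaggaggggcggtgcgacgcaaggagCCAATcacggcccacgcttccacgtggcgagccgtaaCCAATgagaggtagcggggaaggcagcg
Cdk1, chr10:69352939-69353162, minus strand: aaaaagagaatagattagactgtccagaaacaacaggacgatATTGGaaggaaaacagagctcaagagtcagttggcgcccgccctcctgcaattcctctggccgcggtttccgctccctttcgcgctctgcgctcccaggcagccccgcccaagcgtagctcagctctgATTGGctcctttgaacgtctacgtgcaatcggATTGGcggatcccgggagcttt
Apoa2, chr1:171224804-171225053, plus strand: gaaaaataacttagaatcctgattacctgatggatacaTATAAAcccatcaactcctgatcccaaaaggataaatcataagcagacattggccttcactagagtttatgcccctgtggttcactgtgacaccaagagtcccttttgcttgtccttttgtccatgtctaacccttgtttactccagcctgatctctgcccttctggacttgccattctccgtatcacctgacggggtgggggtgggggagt
Apob, chr12:7977427-7977647, plus strand: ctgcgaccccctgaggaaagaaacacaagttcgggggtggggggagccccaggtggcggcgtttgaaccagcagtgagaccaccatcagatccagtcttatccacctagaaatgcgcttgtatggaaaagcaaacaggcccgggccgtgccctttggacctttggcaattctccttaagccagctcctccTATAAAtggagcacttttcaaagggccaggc
The E-box began 189 bases before the start of Eif4a1 and 232 before that of Phb. Ttk had CCAAT boxes at 65 and 28 bases before its start, and Cdk1 at 208, 80 and 48. The TATA motif lay 212 bases before the start of Apoa2 and 60 before that of Apob. Matches of this kind describe letters and show no binding.

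The oncofetal genes held the largest gains. These genes are active in the fetal liver, fall silent after birth and return in some liver tumours. Of 18 tested, 8 were called higher and 2 lower, with a median of 0.89. H19, an imprinted noncoding RNA (ENSMUSG00000000031, chromosome 7, 142575529 to 142578143 on GRCm38), had 37.5, 96.2 and 146 CPM in 12 and 18040, 21530 and 17720 in 1OFF. Every 1OFF liver lay far above every 12 liver, and the 3 livers of 12 themselves spread over a wide range at the low end. The difference was 7.68 ± 0.80 (log2 ± SE, here and below; adjusted p = 9.25e-06, edgeR, n = 3 per group, here and below). Igf2, the imprinted fetal growth factor beside it (ENSMUSG00000048583, chromosome 7, 142650766 to 142666816), had 12.04, 27.7 and 37.3 CPM in 12 and 5101, 6095 and 7034 in 1OFF. The groups did not overlap, and the difference was 7.88 ± 0.81 (adjusted p = 8.38e-06). Igf2os, an antisense transcript over Igf2, differed by 8.20 ± 0.76, and by 9.01 without 12 replicate 3; counting ignored strand, so its reads cannot be told apart from those of Igf2.

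Further fetal genes rose from low levels. Hmga1, a chromatin protein of dividing and fetal cells, had 12.8, 12.2 and 11.6 CPM in 12 and 111, 98.95 and 95.4 in 1OFF, a difference of 3.07 ± 0.29 (adjusted p = 4.91e-06). Igf2bp3, an RNA-binding protein of fetal tissue, had 0.519, 1.48 and 0.883 CPM in 12 and 23.4, 22.8 and 15.5 in 1OFF (difference 4.37 ± 0.55, adjusted p = 3.75e-05). Neither gene's groups overlapped. Afp, the fetal counterpart of albumin, had 7.58, 8.86 and 10.2 CPM in 12 and 42.3, 60.9 and 11.9 in 1OFF. Replicate 3 of 1OFF stood only just above group 12, and the call (adjusted p = 0.0308) was lost without any 1 library of 12 or without 1OFF replicate 1 or 2 (adjusted p up to 0.128). Peg3, another imprinted gene, went the other way with 3.17, 9.02 and 15.1 CPM in 12 and 2.09, 1.91 and 1.64 in 1OFF (difference -2.28 ± 0.57, adjusted p = 0.00623). The other called genes of the list, named to account for the count, were Dlk1, Plagl1 and Bex1 among the higher and Igf2bp2 among the lower.

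Genes of ribosome production were higher almost as a block. Of 25 cytosolic ribosomal protein genes tested, 25 were called higher and 0 lower, with a median of 0.85. Rpl32, a protein of the large subunit, had 154, 181 and 154 CPM in 12 and 417, 407 and 425 in 1OFF (difference 1.35 ± 0.14, adjusted p = 8.19e-06). Rps4x, of the small subunit, had 270.2, 326 and 271 CPM in 12 and 647, 614 and 608 in 1OFF (difference 1.11 ± 0.12, adjusted p = 1.01e-05). In both, the highest liver of 12 lay well under the lowest of 1OFF. The summed level of the list was 5929 to 7720 CPM in 12 and 11720 to 12220 in 1OFF. Of 25 genes of RNA polymerase I, which transcribes ribosomal RNA, and of ribosome assembly, 23 were called higher and 0 lower, with a median of 0.66. Polr1b, the second-largest polymerase I subunit (ENSMUSG00000027395, chromosome 2, 129100995 to 129126594), had 12.6, 14.2 and 12.7 CPM in 12 and 33.6, 33.3 and 39.8 in 1OFF. All 3 livers of 1OFF lay above all of 12, and the difference was 1.43 ± 0.15 (adjusted p = 1.16e-05). Ribosomal proteins have many processed copies in the genome, and uniquely mapped reads can undercount such genes in every library.

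Of 24 genes taken as typical MYC targets, 19 were called higher and 1 lower, with a median of 0.77. Ncl, nucleolin, an organizer of the nucleolus (ENSMUSG00000026234, chromosome 1, 86344719 to 86359400), had 160.2, 189 and 184 CPM in 12 and 564, 532 and 530.2 in 1OFF. The 3 livers of 1OFF lay close together at about the same distance above group 12, and the difference was 1.61 ± 0.12 (adjusted p = 6.3e-07). Small RNA genes lie within Ncl, and their reads count for both. Npm1, a nucleolar chaperone, had 114, 118 and 109.9 CPM in 12 and 281, 274 and 262 in 1OFF (difference 1.26 ± 0.11, adjusted p = 1.88e-06). Fbl, which methylates ribosomal RNA, and Prmt5, an arginine methyltransferase, differed by 1.28 ± 0.10 and 1.16 ± 0.10 (adjusted p = 1.19e-06 and 2.23e-06). Cdk4, a kinase of cell cycle entry named because it alone fell in the list, differed by -0.28 ± 0.10 (adjusted p = 0.0363), a call lost without 12 replicate 2 or 3 or without 1OFF replicate 2 or 3 (adjusted p up to 0.122); with scaling by library size alone it was at 0.07. Genes of nucleotide and polyamine synthesis were called higher in 12 of 24 and lower in 0, with a median of 0.53. Ctps, which makes CTP, had 6.23, 7.32 and 6.70 CPM in 12 and 25.7, 22.9 and 27.5 in 1OFF (difference 1.91 ± 0.20, adjusted p = 9.6e-06). Ppat, the first enzyme of purine synthesis, differed by 1.39 ± 0.15 (adjusted p = 9.93e-06).

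Myc itself had 6.23, 6.35 and 9.54 CPM in 12 and 7.61, 6.30 and 8.63 in 1OFF, overlapping levels with a difference of 0.01 ± 0.25 (adjusted p = 0.972). The sign of that value turned when single libraries were left out. Esr1, the estrogen receptor gene, had 41.2, 39.7 and 33.5 CPM in 12 and 13.4, 9.16 and 20.5 in 1OFF, lower without overlap (-1.42 ± 0.33, adjusted p = 0.00415). The labels do not give the species or the parts of the MycER construct, so neither count checks its presence or activity.

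Cell division genes were higher with a wide spread. Of 26 genes of mitosis, 25 were called higher and 0 lower, with a median of 1.94. Cdk1, the kinase that drives entry into mitosis (ENSMUSG00000019942, chromosome 10, 69336635 to 69352938), had 3.79, 2.60 and 2.58 CPM in 12 and 14.9, 16.6 and 8.30 in 1OFF. Replicate 3 of 1OFF was lower than the other livers of its group yet above all of 12, and the difference was 2.18 ± 0.41 (adjusted p = 0.001). Ccnb2, a mitotic cyclin, had 2.23, 2.05 and 1.96 CPM in 12 and 17.6, 17.2 and 4.56 in 1OFF, with the same liver lowest (2.67 ± 0.55, adjusted p = 0.00176). Ttk, a kinase of the spindle checkpoint, had 0.83, 0.674 and 0.603 CPM in 12 and 5.27, 5.03 and 3.29 in 1OFF (2.72 ± 0.52, adjusted p = 0.001). The summed level of the list was 78.2 to 99.4 CPM in 12 and 170.2 to 378 in 1OFF. Kif23, a motor protein of cell separation and the only member not called, was at 0.97 ± 0.41 (adjusted p = 0.0798). The fit with the mitochondrial share as a term called 0 of 26 higher and 0 lower, with a median of 1.26. The low-Xist libraries alone gave 15 higher, and leaving out 12 replicate 3 alone gave 22, both with a median of 1.83.

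Of 25 genes of DNA replication, 14 were called higher and 1 lower, with a median of 0.84. Mcm6, a subunit of the replicative helicase, had 10.9, 8.70 and 11.9 CPM in 12 and 36.6, 36.5 and 29.6 in 1OFF, without overlap (1.70 ± 0.33, adjusted p = 0.00129). Cdt1, which loads that helicase, differed by 1.39 ± 0.26 (adjusted p = 0.000893). Pola1, the catalytic subunit of the primase polymerase, was lower, with 10.2, 8.25 and 9.63 CPM in 12 and 6.83, 5.59 and 5.16 in 1OFF (-0.67 ± 0.18, adjusted p = 0.0107). Of 20 p53 targets and inhibitors of cyclin-dependent kinases, 12 were called higher and 1 lower, with a median of 0.68. Phlda3, an inhibitor of AKT signalling, had 3.74, 1.89 and 2.93 CPM in 12 and 16.7, 12.4 and 11.96 in 1OFF (2.28 ± 0.34, adjusted p = 0.000147). Bax, which permeabilizes mitochondria in apoptosis, differed by 1.06 ± 0.19 (adjusted p = 0.000819), and Fas, a death receptor, by -0.82 ± 0.15 (adjusted p = 0.000895). Without 12 replicate 3 the calls were 9 higher DNA replication genes and 7 higher p53 genes, and without 1OFF replicate 2 also 9 DNA replication genes; the low-Xist libraries alone gave 9 and 7. With the mitochondrial share as a term, 2 DNA replication genes and 3 p53 genes were higher and none lower.

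**Figure D2:**
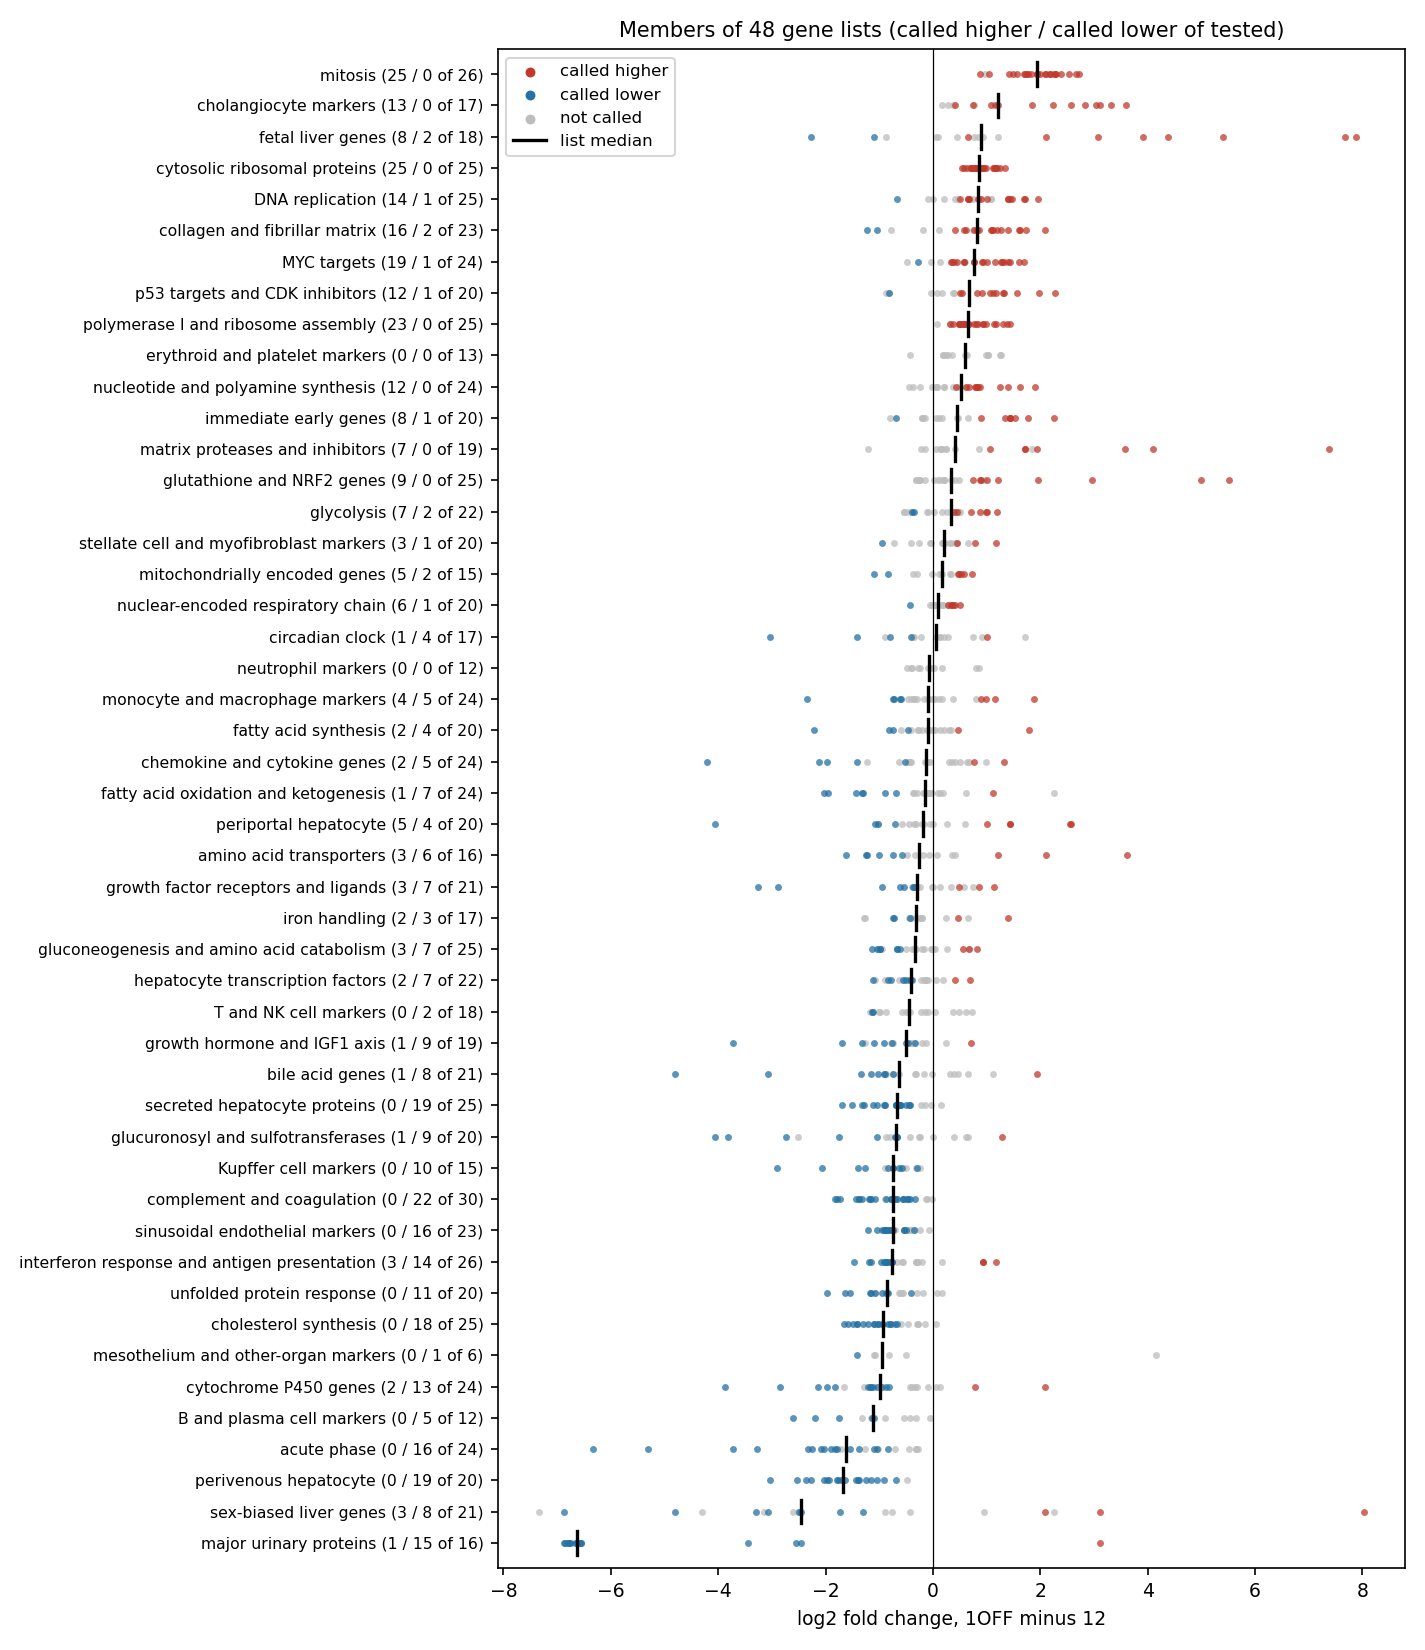
Difference between 1OFF and 12 (x axis, log2, positive where 1OFF is higher) for the tested members of the gene lists (y axis). Points are genes, coloured by call, and the bar is the list's median; the mitosis median of 1.94 and the ribosomal protein median of 0.85 lie to the right of 0, and the major urinary protein median of -6.62 lies far to the left, while 9 medians between -0.31 and -0.07 turn positive when libraries are scaled by size alone.

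In the 300 bases around the start, from 250 before to 50 after, 6 of 19 MYC targets with a promoter in the table had an E-box (31.6%), against 9.65% of 11850 tested genes. Other lists held it as often or nearly so, among them immediate early genes (37.5%), clock genes (30.8%) and hepatocyte transcription factors (4 of 16). A CCAAT box was present in 17 of 22 mitosis genes (77.3%), in 13 of 21 DNA replication genes (61.9%) and in 15 of 17 cholesterol synthesis genes (88.2%), against 38.3%; the share was 88.9% in genes of the unfolded protein response and 76.9% in clock genes. The cell cycle element TTTGAA, known as CHR, was in 16 of 22 mitosis genes (72.7%) against 12.6%. In the 250 bases before the start alone it was in 5 of 22 (22.7%) against 11.3%. Glucuronosyl- and sulfotransferase genes (44.4%) and cytochrome P450 genes (29.4%) held it at the same shares in both windows, above mitosis genes in the shorter one. The E2F motif TTTGGCGC was in 5 of 21 DNA replication genes (23.8%) against 0.945%, and the ETS motif CCGGAAG in 10 of 23 polymerase I and ribosome assembly genes (43.5%) against 16.5%. In the 250 bases before the start alone, ETS was in 5 of 23 (21.7%) against 12.7%. The TATA motif TATAAA was in 6 of 19 acute phase genes (31.6%) and in 4 of 19 genes of secreted proteins (21.1%), against 7.92%; higher shares stood in cytochrome P450 genes (64.7%), sex-biased liver genes (46.2%), hepatocyte transcription factors (37.5%) and chemokines (35.3%). Across all called genes the shares lay near the background: the E-box was in 11.2% of the 2070 higher and 8.92% of the 1995 lower genes with a promoter, CCAAT in 38.1% and 38.4%, CHR in 13.8% and 11.8%, and TATA in 7.25% and 9.97%. E2F was in 0.870% and 0.802% and ETS in 18% and 15.3%. Both strands were searched, no motif contains another, and the lists were chosen for function, not sequence. MYC binds E-boxes, so a list of its targets is not independent of that motif.

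**Figure D3:**
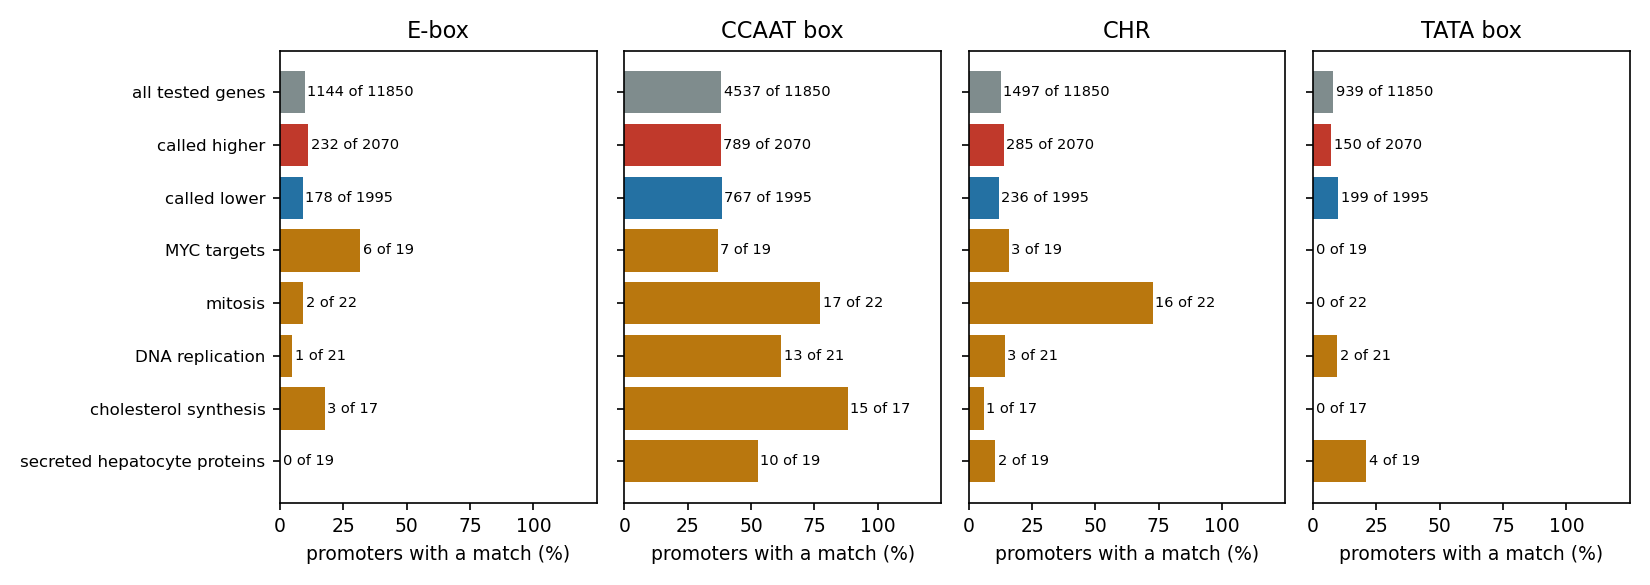
Share of promoters of 300 bases (x axis, percent) that hold each of 4 motifs (panels), for all tested genes, genes called higher or lower, and 5 gene lists (y axis). Bars start at 0 and carry no error because each is a count over fixed genes; CCAAT stands at 77.3% in mitosis and 88.2% in cholesterol synthesis against 38.3% over all tested genes.

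Plasma proteins of the hepatocyte were lower. Of 25 genes of secreted hepatocyte proteins, 0 were called higher and 19 lower, with a median of -0.66. Their summed level was 208000 to 223100 CPM in 12 and 102400 to 123200 in 1OFF. Alb (ENSMUSG00000029368, chromosome 5, 90460897 to 90476602), whose levels by liver are given above, was lower in every 1OFF liver than in any of 12, by 2.85-fold (-1.51 ± 0.22, adjusted p = 0.000158). Ttr, the transthyretin carrier of thyroid hormone, had 4180, 2880 and 5081 CPM in 12 and 1659, 1833 and 1363 in 1OFF (-1.32 ± 0.22, adjusted p = 0.000378). Apoc3, an inhibitor of lipoprotein lipase, had 1137, 957 and 1137 CPM in 12 and 538, 471 and 565 in 1OFF (-1.04 ± 0.14, adjusted p = 6.91e-05). Not called were Apoa4, Ahsg, Fetub, Serpinc1, Rbp4 and Trf. Because CPM are shares, a fall in abundant transcripts such as Alb raises the share left to others, which the composition correction is meant to offset.

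Of 30 complement and coagulation genes, 0 were called higher and 22 lower, with a median of -0.75. F5, coagulation factor V, had 455, 445 and 445 CPM in 12 and 211, 181 and 245 in 1OFF (-1.08 ± 0.19, adjusted p = 0.000714). Fga, the alpha chain of fibrinogen, had 9433, 20580 and 6165 CPM in 12 and 3589, 2609 and 4046 in 1OFF; its highest value was 12 replicate 2, and the difference of -1.82 ± 0.39 (adjusted p = 0.00226) became -1.19 without it. Of 24 acute phase genes, which the liver secretes in inflammation, 0 were called higher and 16 lower, with a median of -1.62. Saa1, serum amyloid A (ENSMUSG00000074115, chromosome 7, 46740501 to 46742980), had 3019, 10640 and 1435 CPM in 12 and 104, 28.5 and 250.5 in 1OFF. The groups did not overlap, 12 replicate 2 stood highest, and the difference of -5.30 ± 1.40 (adjusted p = 0.00896) was -4.12 without that library and -6.24 without 1OFF replicate 3. Orm2, orosomucoid, had 1276, 1525 and 618 CPM in 12 and 107, 71.9 and 175 in 1OFF (-3.27 ± 0.55, adjusted p = 0.000438). The summed acute phase level ran over 33210 to 87830 CPM in 12 and 13270 to 21620 in 1OFF. With the mitochondrial share as a term, 0 acute phase genes, 1 complement or coagulation gene and 4 genes of secreted proteins were called, all lower.

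Major urinary proteins are pheromone carriers made by the mouse liver, mostly in males and under growth hormone pulses. Of 16 Mup genes, 1 were called higher and 15 lower, with a median of -6.62. Mup7 had 1536, 838 and 73.4 CPM in 12 and 9.29, 3.68 and 7.92 in 1OFF (-6.87 ± 1.45, adjusted p = 0.00208). The lowest liver of 12 was replicate 3, the library with high Xist, and it still lay above all of 1OFF; without it the difference was -7.41, and without 12 replicate 1 it was -6.03. Mup10, Mup2, Mup16 and Mup18 differed by -6.79, -6.63, -6.60 and -6.62, moving to between -5.94 and -6.19 without 12 replicate 1 and to between -7.12 and -7.32 without 12 replicate 3. These genes are near-identical copies and only uniquely mapped reads were counted, so the value of a single copy is uncertain. Mup20, the pheromone darcin, was the exception and is named after its values were seen: it had 150.2, 88.5 and 28.7 CPM in 12 and 828, 749 and 740.5 in 1OFF (3.12 ± 1.00, adjusted p = 0.0261), a call lost without 12 replicate 2 or 3 or 1OFF replicate 1 (adjusted p up to 0.0876), with a difference of 3.72 without 12 replicate 1. The summed level of the 16 genes was 1545 to 18800 CPM in 12 and 1037 to 1346 in 1OFF, where Mup20 made up most of it. The median therefore does not measure the family's total, and the lowest liver of 12 lay little above 1OFF in that sum. With the mitochondrial share as a term none of the 16 was called, and their median was -4.39.

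Of 21 sex-biased liver genes, a list that shares Mup7 and others with the lists around it, 3 were called higher and 8 lower, with a median of -2.46. Slco1a1, a male-biased organic anion carrier, had 585, 456 and 333 CPM in 12 and 30.00, 8.52 and 10.5 in 1OFF. The difference of -4.80 ± 0.78 (adjusted p = 0.000311) was -5.59 without 1OFF replicate 1. Slco1a1 thus lay lower in every 1OFF liver than in every 12 liver, including the one with high Xist. Higher members included Mup20 and Cyp2d9, named to account for the count. The median of the sex-biased list was -1.68 without 12 replicate 3 and also among the low-Xist libraries alone. Without 12 replicate 1 it was -1.86. With the mitochondrial share as a term, 2 of these genes were higher and 2 lower, with a median of -1.43. Of 19 genes of the growth hormone and IGF1 axis, 1 were called higher and 9 lower, with a median of -0.51. Ghr, the growth hormone receptor, had 359, 237 and 418 CPM in 12 and 157, 163 and 156 in 1OFF (-1.09 ± 0.27, adjusted p = 0.00534). Stat5a, which carries its signal, differed by -1.32 ± 0.19 (adjusted p = 0.000106). Igfbp3, a carrier of IGF1 named as the only higher member, differed by 0.70 ± 0.24 (adjusted p = 0.0335), a call lost without 12 replicate 1 or 2 or 1OFF replicate 2 or 3 (adjusted p up to 0.121). The list kept 5 lower members without 12 replicate 1, 3 without 1OFF replicate 1 and 4 without 1OFF replicate 2. With the mitochondrial share fitted, 0 were higher and 1 lower.

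**Figure D4:**
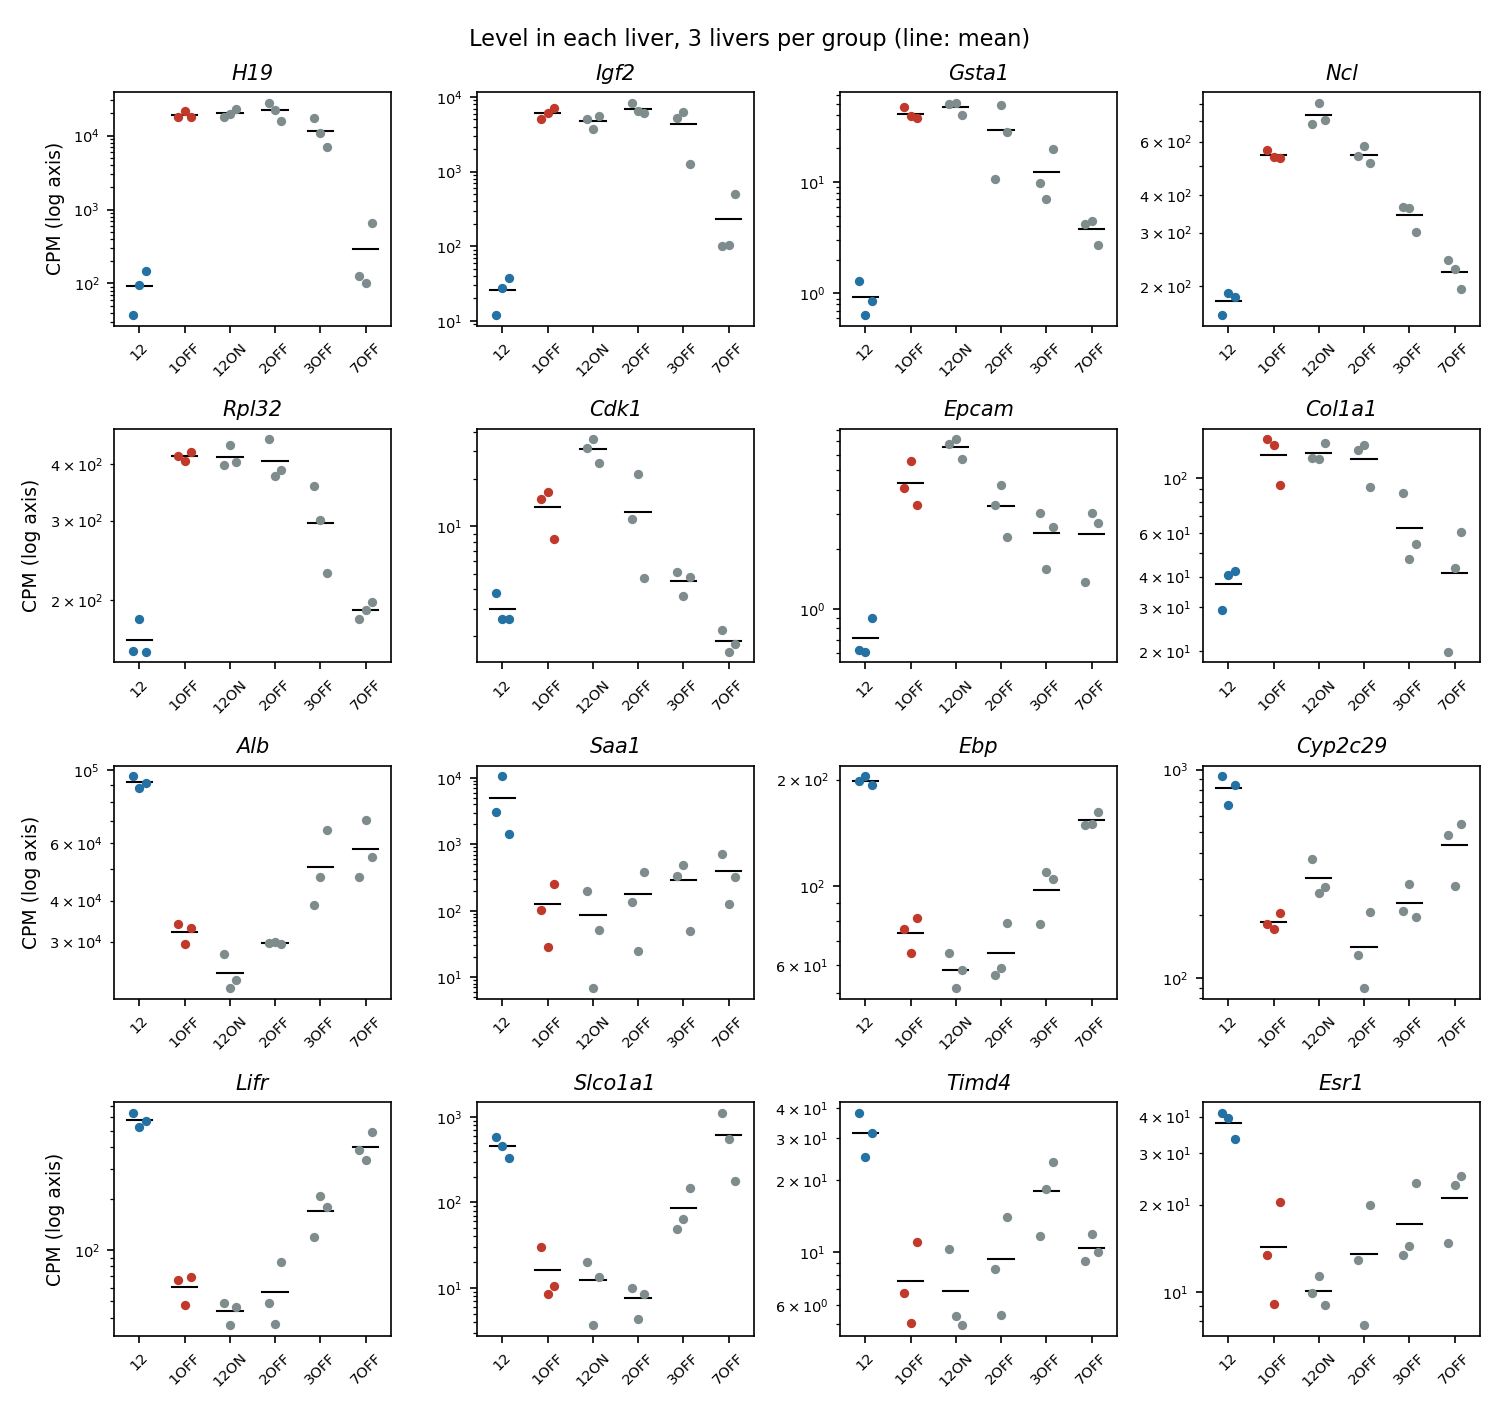
Level of 16 genes (y axis, CPM on a log scale) in each liver of the 6 groups (x axis, ordered 12, 1OFF, 12ON, 2OFF, 3OFF, 7OFF). Points are livers and lines are group means; H19 runs from 37.5, 96.2 and 146 CPM in 12 to 18040, 21530 and 17720 in 1OFF, while Lifr and Slco1a1 fall without overlap.

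Hepatocytes differ along the lobule, and the genes of the zone around the central vein were lower. Of 20 perivenous genes, 0 were called higher and 19 lower, with a median of -1.67 and a summed level of 3750 to 5296 CPM in 12 against 1405 to 1648 in 1OFF. Cldn2, a tight junction protein (ENSMUSG00000047230, chromosome X, 139800828 to 139811386), had 194, 181 and 173 CPM in 12 and 55.7, 45.7 and 59.9 in 1OFF, without overlap (-1.77 ± 0.26, adjusted p = 0.000153). Rgn, the calcium-binding protein regucalcin, had 587, 520.4 and 703 CPM in 12 and 219, 245 and 202 in 1OFF (-1.44 ± 0.26, adjusted p = 0.000718). Tbx3, a transcription factor of that zone, differed by -1.71 ± 0.25 (adjusted p = 0.000156). Glul, glutamine synthetase, and Cyp2e1, the P450 that activates carbon tetrachloride, both zone markers named after their values were seen, differed by -1.16 ± 0.23 and -1.98 ± 0.47 (adjusted p = 0.00139 and 0.00457). Rnf43, a regulator of WNT receptors, was at -0.49 ± 0.22 (adjusted p = 0.102). The mitochondrial share term left 9 perivenous genes lower.

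Of 20 periportal genes, 5 were called higher and 4 lower, near the shares of all tested genes (17.1% and 16.3%). Their median was -0.19 and becomes 0.15 with scaling by library size alone. Cps1, the first enzyme of the urea cycle, had 1818, 1334 and 1726 CPM in 12 and 3184, 2739 and 3856 in 1OFF (1.00 ± 0.19, adjusted p = 0.000905). Hsd17b13, a lipid droplet enzyme, had 317, 364 and 312 CPM in 12 and 880.3, 924 and 897 in 1OFF (1.44 ± 0.11, adjusted p = 6.3e-07). Aldh1b1 and Etnppl were also higher (2.56 ± 0.54 and 1.43 ± 0.27), with Cyp2f2 named to account for the count. Sult5a1, a sulfotransferase, was lower with 67.4, 45.99 and 50.1 CPM in 12 and 4.09, 1.20 and 4.60 in 1OFF (-4.06 ± 0.67, adjusted p = 0.000373); Ctsc, Hal and Uroc1 were the other lower members. Lower calls numbered 2 without 1OFF replicate 1 or 2, and with the mitochondrial share fitted 2 genes were higher and 1 lower.

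Hepatocyte transcription factors had a median of -0.41, and of 22, 2 were called higher and 7 lower. Hnf4a, the main factor of hepatocyte identity, had 718, 868 and 748 CPM in 12 and 587, 515 and 544 in 1OFF (-0.50 ± 0.13, adjusted p = 0.00772). Onecut2 differed by -1.12 ± 0.19 (adjusted p = 0.000512). Nr1i2, the drug sensor PXR, was higher at 0.69 ± 0.17 (adjusted p = 0.00605). The lower calls numbered 4 without 12 replicate 2 or 1OFF replicate 1 and 3 without 1OFF replicate 2. With the mitochondrial share fitted, 2 were lower and 0 higher.

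Drug metabolism genes moved in both directions. Of 24 cytochrome P450 genes, 2 were called higher and 13 lower, with a median of -0.99. Cyp2c29, an epoxygenase and drug oxidase, had 931, 674 and 845 CPM in 12 and 181, 172 and 204 in 1OFF, lower without overlap (-2.14 ± 0.29, adjusted p = 8.48e-05). The higher members were Cyp2d9 and Cyp3a25, named to account for the count. With the mitochondrial share fitted, 1 P450 gene was higher and 4 were lower. Of 20 glucuronosyl- and sulfotransferase genes, 1 were called higher and 9 lower, with a median of -0.68. Ugt3a1, a sugar transferase, had 79.9, 69.7 and 63.00 CPM in 12 and 14.5, 8.56 and 8.48 in 1OFF (-2.74 ± 0.40, adjusted p = 0.000141), and Sult1c2, the only higher member, differed by 1.28 ± 0.27 (adjusted p = 0.00196). Of 25 genes of glutathione conjugation and of the oxidant sensor NRF2, 9 were called higher and 0 lower, with a median of 0.34. Gsta1, a glutathione transferase (ENSMUSG00000074183, chromosome 9, 78230656 to 78242684), had 1.30, 0.642 and 0.862 CPM in 12 and 46.7, 38.9 and 37.3 in 1OFF. The 3 livers of 1OFF lay close together, far above group 12, and the difference was 5.51 ± 0.56 (adjusted p = 7.95e-06). Its close relative Gsta2 differed by 4.99 ± 0.43 (adjusted p = 2.01e-06), and reads that fit both copies were not counted. Gstm3 had 71.3, 36.1 and 70.2 CPM in 12 and 563, 470.4 and 358 in 1OFF (2.97 ± 0.38, adjusted p = 5.12e-05). With the mitochondrial share fitted, 3 glutathione and NRF2 genes were higher and 0 lower. That fit called 0 glucuronosyl- and sulfotransferase genes higher and 4 lower.

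Genes of cholesterol synthesis were lower in the main: of 25, 0 were called higher and 18 lower, with a median of -0.93 and a summed level of 6216 to 8286 CPM in 12 against 3682 to 4355 in 1OFF. Ebp, the sterol isomerase (ENSMUSG00000031168, chromosome X, 8185329 to 8193512), had 198, 204 and 193 CPM in 12 and 75.9, 64.96 and 81.6 in 1OFF, tight within each group and without overlap (-1.42 ± 0.15, adjusted p = 9.23e-06). Sc5d, the sterol desaturase, had 339, 278 and 417 CPM in 12 and 96.3, 129 and 117 in 1OFF (-1.59 ± 0.23, adjusted p = 0.000143). Of 21 bile acid genes, 1 were called higher and 8 lower, with a median of -0.63. Hsd3b7, an enzyme of bile acid synthesis, had 594, 423 and 589 CPM in 12 and 265, 258 and 271 in 1OFF (-1.02 ± 0.19, adjusted p = 0.000779). Slc51b, part of the basolateral bile acid exporter, was the only higher member, with 2.65, 6.48 and 6.01 CPM in 12 and 19.5, 22.6 and 17.00 in 1OFF (1.94 ± 0.31, adjusted p = 0.0003). Higher bile acid genes numbered 3 without 12 replicate 3, and the list median moved to -0.33 without 12 replicate 1, -0.37 without 12 replicate 3 and -0.41 without 1OFF replicate 2. The mitochondrial share term left 7 cholesterol and 2 bile acid genes lower.

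Other metabolic lists moved less as a whole. Of 20 fatty acid synthesis genes, 2 were called higher and 4 lower, with a median of -0.10 that becomes 0.23 with scaling by library size alone. Fads1, a fatty acid desaturase, fell by 2.21 ± 0.30 (adjusted p = 8.53e-05), while Scd2, the stearoyl desaturase of fetal and dividing tissue, differed by 1.79 ± 0.41 (adjusted p = 0.00366). The other lower members were Srebf1, Agpat2 and Elovl5, and Acaca was the other higher one. Of 24 genes of fatty acid oxidation and ketogenesis, 1 were called higher and 7 lower, with a median of -0.14 that becomes 0.18 with that scaling. The fatty acid importer Cd36 was the only higher member (1.11 ± 0.22, adjusted p = 0.0014). Of 25 genes of gluconeogenesis and amino acid breakdown, 3 were called higher and 7 lower, with a median of -0.34. Fbp1, a gluconeogenic phosphatase, differed by -1.13 ± 0.27 (adjusted p = 0.0047), and the higher members were Agxt2, Sdsl and Pcx. This list had 4 lower calls without 12 replicate 1 or 1OFF replicate 1 and 3 without 1OFF replicate 2, and 0 with the mitochondrial share fitted. Of 22 glycolysis genes, 7 were called higher and 2 lower, with a median of 0.33. Eno1, an enolase of growing tissue, had 306, 249 and 399.9 CPM in 12 and 688, 648 and 585 in 1OFF (1.01 ± 0.18, adjusted p = 0.000755). Tpi1 and Pfkm were lower. With the mitochondrial share fitted, 4 glycolysis genes were higher and 0 lower.

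Of 16 amino acid transporters, 3 were called higher and 6 lower, with a median of -0.26 that becomes 0.09 with scaling by library size alone. Slc7a1, the cationic amino acid carrier that mature hepatocytes hold at low levels, had 3.53, 3.11 and 3.40 CPM in 12 and 14.9, 14.1 and 14.3 in 1OFF (2.11 ± 0.24, adjusted p = 1.78e-05). Slc7a6 and Slc7a3 were the other higher members, and Slc38a3, a glutamine carrier, was lower at -1.24 ± 0.24 (adjusted p = 0.00116). Of 20 nuclear genes of the respiratory chain, 6 were called higher and 1 lower, with a median of 0.10. Ndufa1 was the lower one, and 2 were higher without 12 replicate 1 and 3 without 1OFF replicate 1 or 2. With the mitochondrial share fitted, 0 of these nuclear genes were higher and 0 lower. Of 15 genes of the mitochondrial genome, 5 were called higher and 2 lower, with a median of 0.17. mt-Cytb, of complex III, differed by 0.73 ± 0.17 (adjusted p = 0.00346), with mt-Atp6, mt-Atp8, mt-Nd3 and mt-Co3 also higher. The ribosomal RNA genes mt-Rnr1 and mt-Rnr2 were lower, and mt-Rnr2 differed by -1.09 ± 0.28 (adjusted p = 0.00746). Of 17 iron genes, 2 were called higher and 3 lower, with a median of -0.31 that becomes 0.02 with scaling by library size alone. Tfrc, the transferrin receptor, differed by 1.40 ± 0.31 (adjusted p = 0.00285) and Hfe2 was the other higher member, while Hfe, Tfr2 and Slc39a14 were lower; 1 was lower without 12 replicate 2 or 1OFF replicate 1 or 2, and none was called with the mitochondrial share fitted.

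Stress and signal genes were also measured. Of 20 genes of the unfolded protein response, 0 were called higher and 11 lower, with a median of -0.85. Their summed level was 4512 to 10820 CPM in 12 and 4020 to 4551 in 1OFF, ranges that overlap. Xbp1, a transcription factor of that response and of secretory capacity, had 357, 314 and 263 CPM in 12 and 137, 123 and 153 in 1OFF (-1.18 ± 0.20, adjusted p = 0.000526). The lower calls numbered 6 without 12 replicate 2 or 1OFF replicate 1 and 7 without 1OFF replicate 2, and the median moved to -0.30 without 12 replicate 2. With the mitochondrial share as a term, 1 member was called lower. Of 20 immediate early genes, 8 were called higher and 1 lower, with a median of 0.45. Klf6 had 18.2, 18.2 and 21.5 CPM in 12 and 47.7, 60.4 and 59.2 in 1OFF (1.53 ± 0.18, adjusted p = 2.11e-05), and the stress factor Atf3 differed by 2.25 ± 0.38 (adjusted p = 0.000445). Fosl2 was the lower member, and 5 were higher without 12 replicate 2 or 1OFF replicate 3. The median was 0.07 and 0.21 without those libraries and 0.93 without 12 replicate 3. Of 17 clock genes, 1 were called higher and 4 lower, with a median of 0.05 that was -0.19 without 12 replicate 1. Npas2, a clock activator, differed by -3.04 ± 0.84 (adjusted p = 0.0112), with Clock, Nr1d1 and Rora also lower; 2 were lower without 1OFF replicate 2 and 0 with the mitochondrial share fitted; the hour of collection is not in the labels.

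Of 21 growth factor receptors and ligands, 3 were called higher and 7 lower, with a median of -0.29 that becomes 0.06 with scaling by library size alone. Lifr, the receptor of leukemia inhibitory factor (ENSMUSG00000054263, chromosome 15, 7129559 to 7197489), had 638, 524 and 572 CPM in 12 and 66.2, 47.5 and 68.98 in 1OFF. No liver of 1OFF came near group 12, and the difference was -3.25 ± 0.29 (adjusted p = 3e-06). Egfr, the receptor of epidermal growth factor, had 482, 371 and 160.1 CPM in 12 and 55.2, 23.8 and 59.1 in 1OFF (-2.88 ± 0.61, adjusted p = 0.00227). Tgfa, a ligand of that receptor, was higher at 0.86 ± 0.14 (adjusted p = 0.000371), as were Hgf and Ccn2, a matrix growth factor listed under its older symbol Ctgf; 1 was higher without 12 replicate 2 or 1OFF replicate 1 or 2.

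Markers of other cells of the liver were counted next. Of 17 bile duct markers, 13 were called higher and 0 lower, with a median of 1.21 and a summed level of 74.2 to 141 CPM in 12 against 221 to 306 in 1OFF. Epcam, an adhesion protein of duct and progenitor cells, had 0.623, 0.61 and 0.905 CPM in 12 and 4.07, 5.57 and 3.36 in 1OFF, without overlap (2.57 ± 0.35, adjusted p = 7.01e-05). Bicc1, an RNA-binding protein of ducts, had 7.53, 6.07 and 7.30 CPM in 12 and 46.6, 63.7 and 38.9 in 1OFF (2.84 ± 0.37, adjusted p = 5.14e-05). Krt23, Sox9 and Ezr were among those not called. The median was 1.82 without 12 replicate 2, and the low-Xist libraries alone gave 8 higher, against 9 without 12 replicate 3. In the fit with the mitochondrial share term, 4 members were called higher and none lower.

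Of 23 collagen and matrix genes, 16 were called higher and 2 lower, with a median of 0.83. Col1a1, a chain of type I collagen, had 29.4, 40.8 and 41.96 CPM in 12 and 143, 136 and 93.7 in 1OFF, without overlap (1.73 ± 0.32, adjusted p = 0.000936). Col3a1 differed by 1.63 ± 0.30 (adjusted p = 0.00074). Fn1, fibronectin, which hepatocytes secrete into plasma, went the other way with 2150, 2807 and 2249 CPM in 12 and 987, 846 and 1231 in 1OFF (-1.23 ± 0.20, adjusted p = 0.000349). Fn1 weighs on the list's summed level, which was 3826 to 4469 CPM in 12 and 3446 to 3745 in 1OFF, opposite in direction to the median. Col15a1 was the other lower member. Of 20 markers of stellate cells and myofibroblasts, 3 were called higher and 1 lower, with a median of 0.20; Postn, Tagln and Lrat were higher and Hhip lower. In all, 1 was higher without 12 replicate 1 or 2 or 1OFF replicate 2, and Hhip was called in 1 of the 6 fits without a library. Of 19 matrix proteases and their inhibitors, 7 were called higher and 0 lower, with a median of 0.42 that was 0.76 without 12 replicate 3. Mmp13, a collagenase, had 0.311, 0.321 and 0.603 CPM in 12 and 6.66, 5.40 and 3.44 in 1OFF (3.57 ± 0.50, adjusted p = 8.99e-05). Timp4, a protease inhibitor, had 0.156, 0.257 and 0.194 CPM in 12 and 17.4, 14.8 and 72.6 in 1OFF (7.37 ± 0.98, adjusted p = 6.52e-05), and its difference was 6.26 without 1OFF replicate 3. When the mitochondrial share was fitted, 2 collagen and matrix genes were higher and 1 lower.

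Of 23 markers of sinusoidal endothelial cells, which line the liver's capillaries, 0 were called higher and 16 lower, with a median of -0.75 and a summed level of 832 to 967 CPM in 12 against 527 to 566 in 1OFF. Clec4g, a lectin of these cells, had 77.2, 75.2 and 80.5 CPM in 12 and 40.5, 39.8 and 32.3 in 1OFF, without overlap (-1.05 ± 0.15, adjusted p = 9.76e-05). Of 15 markers of Kupffer cells, the resident macrophages, 0 were called higher and 10 lower, with a median of -0.74 and a summed level of 1859 to 2256 CPM against 1031 to 1499. Timd4, a receptor for dying cells held by resident macrophages, had 38.1, 24.9 and 31.3 CPM in 12 and 6.75, 5.05 and 11.02 in 1OFF, without overlap (-2.06 ± 0.38, adjusted p = 0.000771). Marco, a scavenger receptor, differed by -2.91 ± 0.74 (adjusted p = 0.00689) and by -3.66 without 1OFF replicate 3. Vsig4, Cd5l, C6, Slc40a1 and Xlr were not called. The Kupffer cell calls fell to 6 without 12 replicate 1 or 2, to 5 without 1OFF replicate 1 and to 3 without 1OFF replicate 2. They numbered 4 among the low-Xist libraries alone and 7 without 12 replicate 3. Fitted with the mitochondrial share, 11 endothelial markers were lower and 0 Kupffer cell markers were called.

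Of 24 monocyte and macrophage markers, 4 were called higher and 5 lower, with a median of -0.09 that becomes 0.25 with scaling by library size alone. Trem2, a receptor of lipid-handling macrophages, had 1.97, 2.18 and 4.57 CPM in 12 and 11.2, 9.35 and 12.8 in 1OFF (1.89 ± 0.32, adjusted p = 0.000421), and Cd9, Spp1 and Ms4a7 were the other higher members. Fabp5, Adgre1, Csf1r, Lyz2 and Aif1 were lower. Higher calls numbered 2 without 12 replicate 3. Lower calls numbered 1 without 12 replicate 1, 2 without 1OFF replicate 2 and 3 without 12 replicate 3 or 1OFF replicate 1, and the median was 0.03 without 1OFF replicate 2. Of 12 neutrophil markers, 0 were called higher and 0 lower, with a median of -0.07 that becomes 0.27 with that scaling, 0.08 without 1OFF replicate 1 and 0.06 without 1OFF replicate 3, and a summed level of 301 to 466 CPM in 12 and 252 to 543 in 1OFF. Of 18 T and NK cell markers, 0 were called higher and 2 lower, with a median of -0.44 that was -0.19 without 12 replicate 3. Klrk1 and Cd3g were the lower ones (-1.12 ± 0.32 and -1.13 ± 0.36); the first call was lost without 1OFF replicate 2 (adjusted p = 0.0629) and the second without 12 replicate 1 or 3 or 1OFF replicate 1 or 2 (adjusted p up to 0.11). Of 12 B and plasma cell markers, 0 were called higher and 5 lower, with a median of -1.11; Cd79a, a part of the B cell receptor, had 1.87, 1.48 and 1.94 CPM in 12 and 0.296, 0.301 and 0.598 in 1OFF (-2.20 ± 0.45, adjusted p = 0.00172), and Cd79b, Ms4a1 and Pax5 were also lower. Lower B cell calls numbered 3 without 12 replicate 2 or 3 and 2 without 1OFF replicate 2. The mitochondrial share term left 1 monocyte or macrophage marker higher, none lower, and no B cell marker called.

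Of 26 genes of the interferon response and antigen presentation, 3 were called higher and 14 lower, with a median of -0.76. Irf9, a transcription factor of the interferon signal, had 50.2, 46.98 and 41.3 CPM in 12 and 25.9, 22.7 and 27.3 in 1OFF, lower without overlap (-0.87 ± 0.13, adjusted p = 0.00018). The 3 higher members were the class II genes Cd74, H2-Aa and H2-Ab1, the last pair named to account for the count. Cd74, the invariant chain, had 119.5, 131 and 147 CPM in 12 and 288, 322 and 284 in 1OFF (1.17 ± 0.16, adjusted p = 8.57e-05). H2-Aa had 33.3, 30.9 and 37.7 CPM in 12 and 69.7, 86.03 and 38.1 in 1OFF, with replicate 3 of 1OFF close to group 12 (0.93 ± 0.28, adjusted p = 0.0169), a call lost without 12 replicate 2 or 1OFF replicate 1 or 2 (adjusted p up to 0.0988). Each of those 3 fits called 1 higher member. Of 24 chemokine and cytokine genes, 2 were called higher and 5 lower, with a median of -0.13 that becomes 0.22 with scaling by library size alone. Cxcl1, which attracts neutrophils, had 134, 106 and 38.6 CPM in 12 and 18.9, 14.7 and 30.5 in 1OFF (-2.13 ± 0.53, adjusted p = 0.00641). Cxcl13, which attracts B cells, differed by -4.21 ± 0.95 (adjusted p = 0.00324), by -5.76 without 1OFF replicate 3 and by -3.40 without 12 replicate 1. Cxcl5, Cxcl12 and Ccl24 were also lower, and Cx3cl1 and Ccl6 higher. Lower calls numbered 3 without 12 replicate 2, 2 without 1OFF replicate 1 and 0 with the mitochondrial share fitted, where the median was 0.27.

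Of 13 red cell and platelet markers, 0 were called higher and 0 lower, with a median of 0.60 that was 0.32 without 1OFF replicate 2. Of 6 tested markers of mesothelium and neighbouring organs, 0 were called higher and 1 lower, with a median of -0.95. Wt1, a mesothelial factor, was the lower one (-1.42 ± 0.43, adjusted p = 0.0203), a call lost without 12 replicate 2 or 1OFF replicate 1 or 2 (adjusted p up to 0.115). A further 9 members of that list had too few counts to test, 1 was not matched, and the fat cell hormone Adipoq was at 0 in all 6 libraries.

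The remaining genes of largest size lay outside the lists. Gsn, gelsolin, which severs actin filaments, had 24.6, 27.7 and 37.5 CPM in 12 and 1144, 1366 and 862 in 1OFF (5.23 ± 0.44, adjusted p = 1.59e-06). Defb1, an epithelial antimicrobial peptide, had 0, 0.0642 and 0.194 CPM in 12 and 14.6, 26.96 and 13.6 in 1OFF (7.34 ± 0.75, adjusted p = 8.73e-06), and differed by 8.77 without 12 replicate 3. Gpx6 and Gpx2, glutathione peroxidases, differed by 6.42 ± 0.64 and 5.95 ± 0.70 (adjusted p = 6.94e-06 and 2.29e-05), the first by 7.34 without 12 replicate 3. The last 3 rose from levels near 0. Ranges without overlap between the groups were a condition for naming these genes. Among the genes that were lower, Sfrp5, a secreted WNT inhibitor, had 26.9, 61.3 and 8.53 CPM in 12 and 0.999, 0.129 and 0.673 in 1OFF (-5.73 ± 1.10, adjusted p = 0.00111), and differed by -4.86 without 12 replicate 2. Slc34a2, a phosphate carrier, had 704, 194 and 701 CPM in 12 and 31.5, 5.72 and 19.7 in 1OFF (-4.81 ± 1.19, adjusted p = 0.0061), and by -5.41 without 1OFF replicate 1.

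The 12ON livers, with MycER activated, were set beside 1OFF and 12. In the direct comparison of 1OFF with 12ON, edgeR called 1 of 17789 genes (0.00562%), while 2568 had an unadjusted p under 0.05; DESeq2 called 130 higher and 396 lower. A p that misses the threshold does not show that the levels were alike. The 1 gene, Gm26714, overlaps Tcim and had 8.24, 8.09 and 7.10 CPM in 1OFF, 2.62, 1.72 and 2.32 in 12ON and 4.88, 3.79 and 4.22 in 12 (adjusted p = 0.039), and it was not called in any of the 9 fits that left out 1 library of 12, 1OFF or 12ON. The differences of 1OFF and of 12ON from group 12 share that group, so they are given side by side and not correlated. H19 and Igf2 differed from 12 by 7.68 and 7.88 in 1OFF and by 7.76 and 7.54 in 12ON. Cdk1 had 31.5, 35.7 and 25.4 CPM in 12ON and lay 2.18 above 12 in 1OFF and 3.39 above it in 12ON; the direct difference of 1OFF from 12ON was -1.21 ± 0.38 (adjusted p = 0.16). Mcm6 lay 1.70 and 2.90 above 12, with a direct difference of -1.19 ± 0.32 (adjusted p = 0.121). Ncl lay 1.61 and 2.04 above 12 (direct difference -0.44 ± 0.12, adjusted p = 0.121). Alb lay -1.51 and -1.93 from 12 (direct difference 0.42 ± 0.22, adjusted p = 0.403).

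By list, the medians from group 12 were 1.94 in 1OFF and 3.20 in 12ON for mitosis, 0.84 and 1.84 for DNA replication, and 0.77 and 1.29 for MYC targets. Ribosomal proteins stood at 0.85 and 0.91, p53 targets at 0.68 and 0.68, and acute phase genes at -1.62 and -2.02. Perivenous genes stood at -1.67 and -1.77, complement and coagulation genes at -0.75 and -1.19, and secreted hepatocyte proteins at -0.66 and -1.04. Of all 48 lists, 38 had a 1OFF median of the same sign as that of 12ON and nearer 0, and 8 had one farther from 0. Those 8 were collagen and matrix genes (0.83 in 1OFF and 0.75 in 12ON), glycolysis (0.33 and 0.22), immediate early genes (0.45 and 0.25), sex-biased genes (-2.46 and -2.32), the nuclear respiratory chain (0.10 and 0.03), mitochondrially encoded genes (0.17 and 0.04), neutrophil markers (-0.07 and -0.02) and markers of neighbouring organs (-0.95 and -0.74). Clock genes had medians of opposite sign (0.05 and -0.44). A difference of list medians is not the median of the members' direct differences between 1OFF and 12ON. For sex-biased genes that direct median was 0.40, toward group 12, and for glycolysis 0.00. Among the 38 lists it went against the order in matrix proteases and inhibitors (0.07), amino acid transporters (-0.09) and the unfolded protein response (-0.01). In the remaining lists of the 38 and the 8 it had the sign of the order. These order differences were not tested. The summed mitosis level was 78.2 to 99.4 CPM in 12, 170.2 to 378 in 1OFF and 467 to 782 in 12ON, with no overlap among the 3 groups. Group 2OFF held 114 to 489 CPM, group 3OFF 80.6 to 104 CPM and group 7OFF 43.7 to 68.01 CPM. The summed DNA replication level was 176 to 180.1, 263 to 321 and 526 to 689 CPM in the same order, again without overlap. The summed ribosomal protein level of 1OFF, 11720 to 12220 CPM, overlapped that of 12ON, 11760 to 13730.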

How the data were processed

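RNA was extracted on Qiagen columns, poly-A selected and sequenced as single-end reads, per the labels' protocols. The authors deposited raw counts per gene, made with featureCounts 1.5.0-p1 per the file headers, on exons of Ensembl 82, without strand and with a read counted for each gene it overlapped by at least 10 bases. No option for multi-mapped reads was set, and the tool leaves such reads out by default. Trim Galore, TopHat2 and the build mm10 are named in the submitters' processing notes, with no versions. Replicates were not pooled, and all 18 libraries differed beyond counting noise (chi-square per gene 31.6 to 287.5 between libraries of a group).

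From the deposited counts, 34937 genes were read, 34599 with a symbol. Genes passing filterByExpr (minimum count 10) numbered 17789, of which 17692 had a symbol. All 18 libraries were fitted in 1 model of 6 groups with TMM scaling and edgeR 4.0.16 quasi-likelihood F tests, two-sided, in R 4.3.3 with limma 3.58.1. Groups share 1 estimate of spread (12 residual degrees of freedom, biological coefficient of variation 0.202), and adjusted p is Benjamini-Hochberg over all tested genes. SE is the size of the log2 difference divided by the square root of the F statistic, so it rests on that shared spread. The code of the fit was run on simulated counts with few changed genes, as many higher as lower. That run cannot bear on the scaling between groups that differ as widely as these. CPM use TMM-scaled library sizes, and levels are compared between livers, not between genes.

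The comparison and the 48 lists (977 distinct genes, 970 matched) were chosen with earlier results of these data known. Named genes are Myc, Esr1, Xist, H19 and Afp; the 10 highest and 10 lowest differences, and the 6 largest gains and losses of mean CPM, among genes called with all libraries and without each of the 6; from each list the members of smallest p so called, at most 4 per direction, or else 2 as values; and the genes called between 1OFF and 12ON. Both rankings also needed a mean of 5 CPM or more in the higher group and CPM ranges that did not overlap. The lack of overlap of genes so named is therefore by selection. Others are marked where they appear, and several genes within the rule are left unreported. Of 17692 tested genes with a symbol, 11850 matched a RefSeq promoter (GRCm38.p6), searched for 6 motifs; the rule for printing a promoter was applied outside annotated exons, a condition added after the data were seen. Gene positions are on GRCm38. Alternatives were other scalings and filters, DESeq2 1.42.0, 2 groups alone, a 1.5-fold test, a replicate block, Xist and mitochondrial share terms, low-Xist libraries alone, a threshold of 0.01 and leaving out each library. Mice are stated per time point, and p-values measure the spread between these mice.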

Additional observations from a re-analysis of the deposited data

How the results depend on the processing

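Of the named genes called in 1OFF against 12, Cdk4 alone changed direction under an alternative (0.07 with library size alone). For 1OFF against 12, scaling by library size alone gave 6774 higher and 1018 lower genes, a test against a 1.5-fold difference 875 and 542, the mitochondrial share as a term 1178 and 688, and an adjusted p under 0.01 1897 and 1602. Leaving out 1 library of 12 or 1OFF at a time gave 2373 to 2721 higher and 2024 to 2529 lower genes, and leaving out 1 of 12ON gave 2859 to 2883 and 2865 to 2880. The other settings stayed within 1.5 times of 3036 and 2903. For 1OFF against 12ON, with 1 higher and 0 lower, DESeq2 gave 130 and 396, the 2 groups alone 46 and 143, and the replicate block 4 and 14. No gene (0 and 0) was called with library size alone, the 1.5-fold test, the Xist term, low-Xist libraries alone, the mitochondrial share term or a threshold of 0.01, nor without any 1 of the 9 libraries of 12, 1OFF and 12ON (0 to 0). Among genes not called, Shmt2 turned to 0.10 with library size alone, Myc to -0.37 with the mitochondrial share term, and Xist to 0.07 with the Xist term. Without 1 library, Myc ran from -0.10 to 0.25. List medians changed sign in 9 lists with library size alone and in 4 with the mitochondrial share term. They turned to 0.09 for amino acid transporters, 0.06 for growth factor receptors and ligands and 0.02 for iron handling with library size alone, and to -0.07 for stellate cell markers, -0.17 for mitochondrially encoded genes, 0.27 for chemokine and cytokine genes and 0.04 for fatty acid synthesis with the mitochondrial share term. The clock median turned to -0.19, -0.01 and -0.11 without 12 replicate 1, 12 replicate 2 and 1OFF replicate 3, and to -0.03 with the replicate block. The cause of these changes was not tested. Counts under about 10 per library leave genes out of the test, so low members are limited by depth.

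Groups share replicate numbers in the labels. Same-numbered livers of 12 and 1OFF did not deviate together (r over genes -0.04, -0.09 and -0.10, and -0.02 to 0.11 in other pairs). No pairing by number is seen in these values, and with 3 livers per group they cannot exclude one. With the replicate block the calls were 3097 higher and 2944 lower.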

Other observations

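The genes below were chosen after their values were seen and are given as description. Mthfd1l, a mitochondrial folate enzyme that yields formate, had 1.30, 1.67 and 2.61 CPM in 12 and 25.7, 22.8 and 21.1 in 1OFF (3.58 ± 0.26 on the log2 scale, adjusted p = 6.3e-07, edgeR). Phgdh, the first enzyme of serine synthesis, had 1.35, 3.82 and 1.61 CPM in 12 and 22.4, 23.7 and 12.7 in 1OFF (3.10 ± 0.51, adjusted p = 0.000368; 3.70 without 12 replicate 2), while Shmt2 and Mthfd2, of the mitochondrial folate route and members of the nucleotide synthesis list, were not called, at -0.24 ± 0.12 and 0.61 ± 0.36 (adjusted p = 0.125 and 0.214). Idh2, mitochondrial isocitrate dehydrogenase, differed by 1.51 ± 0.11 (adjusted p = 6.3e-07). Smpdl3b, a membrane phosphodiesterase, had 2.65, 1.99 and 1.83 CPM in 12 and 104, 118 and 125 in 1OFF (5.78 ± 0.24, adjusted p = 2.26e-09), and Osbpl3, a lipid transfer protein, differed by 3.89 ± 0.22 (adjusted p = 1.32e-07).

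In 1 imprinted region on chromosome 12, Dlk1, the paternally expressed member, had 0.0519, 0.289 and 0.323 CPM in 12 and 4.48, 14.2 and 13.98 in 1OFF (5.41 ± 0.97, adjusted p = 0.000668). Meg3 and Rian, maternally expressed noncoding RNAs, had 15.2, 11.7 and 12.04 and 15.00, 14.8 and 9.91 CPM in 12. In 1OFF they had 0.648, 2.13 and 1.98 and 1.07, 2.30 and 2.28, lower without overlap (-3.05 ± 0.55 and -2.83 ± 0.49, adjusted p = 0.000718 and 0.000547). All 3 calls held when each library was left out. In 12ON, Dlk1, Meg3 and Rian averaged 53.1 ± 23.1, 6.83 ± 3.19 and 9.19 ± 4.03 CPM (SD, n = 3).

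Ihh, a hedgehog ligand, had 0.104, 0.578 and 0.366 CPM in 12 and 6.72, 7.70 and 5.79 in 1OFF (4.17 ± 0.45, adjusted p = 1.16e-05), and Jag2, a Notch ligand, differed by 4.74 ± 0.68 (adjusted p = 0.000115). Dio1, which activates thyroid hormone, had 172, 86.4 and 184 CPM in 12 and 21.9, 27.2 and 23.8 in 1OFF (-2.60 ± 0.44, adjusted p = 0.00041), and Avpr1a, the vasopressin receptor, differed by -2.75 ± 0.26 (adjusted p = 4.91e-06).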
